A study of Homo sapiens with 4 samples.

Results

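The metallothionein family and MTF1 were followed by gene symbol through RNA-seq libraries labelled HepG2, a widely used line from a human liver cancer. The 10 members were MT2A, MT1E, MT1X, MT1F, MT1G, MT1M, MT1H and MT1A, which encode metallothioneins, the pseudogene MT1JP, and MTF1. They were chosen from these data, because MT1JP was among the lowest genes in the libraries labelled siLINC01186. All 10 were found among the 44591 genes of the tables, and 5 of them (MT2A, MT1E, MT1X, MT1JP and MTF1) had at least 5 counts summed over the 4 libraries, the minimum for testing. One group received siNC, the control siRNA, and the other siLINC01186, which targets the long noncoding RNA LINC01186, called SALIS in the study. There were 2 libraries per group, numbered replicate 1 and replicate 2. Both groups had 6 h without serum and then 24 h with serum after transfection. The siNC oligo was the same in both replicates, while the siLINC01186 oligo differed between them, and which one each library received is not in the labels. No other genotype, drug or added metal is named for either group. The study calls the replicates biological repeats, while the labels do not state that they came from separate cultures. The p-values therefore measure the spread between these libraries only.

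Metallothioneins are small, cysteine-rich proteins that bind zinc, copper and cadmium. In the liver they hold zinc in store and buffer excess metal. MTF1 is a zinc finger transcription factor that senses free zinc and binds metal response elements, short motifs in the promoters of metallothionein genes. Glucocorticoids also raise metallothionein transcription. MT1JP lies within the metallothionein cluster and is transcribed without a known metallothionein product.

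The promoters are shown because they hold the motif that joins MTF1 to the family, in an expressed and in an unexpressed member alike. Sequences came from RefSeq on GRCh38.p14, where 4 members (MT2A, MT1X, MT1H and MTF1) were matched. Each line gives the 250 bases before the start of transcription, on the strand of the gene. The capitals mark the core of the metal response element, searched on both strands as TGCACNC and TGCGCNC.
MT2A, chr16:56608334-56608583, plus strand: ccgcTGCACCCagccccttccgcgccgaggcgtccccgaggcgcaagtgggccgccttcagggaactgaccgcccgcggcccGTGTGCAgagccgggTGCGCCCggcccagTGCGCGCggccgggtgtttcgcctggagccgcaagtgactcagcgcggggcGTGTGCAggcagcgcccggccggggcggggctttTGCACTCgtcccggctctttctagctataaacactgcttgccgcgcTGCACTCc
MT1X, chr16:56682220-56682469, plus strand: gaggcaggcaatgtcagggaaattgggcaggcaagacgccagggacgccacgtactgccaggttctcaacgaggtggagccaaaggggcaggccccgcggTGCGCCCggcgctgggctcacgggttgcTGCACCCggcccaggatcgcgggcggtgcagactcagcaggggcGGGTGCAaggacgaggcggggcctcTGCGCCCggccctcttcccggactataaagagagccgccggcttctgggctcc
MT1H, chr16:56669564-56669813, plus strand: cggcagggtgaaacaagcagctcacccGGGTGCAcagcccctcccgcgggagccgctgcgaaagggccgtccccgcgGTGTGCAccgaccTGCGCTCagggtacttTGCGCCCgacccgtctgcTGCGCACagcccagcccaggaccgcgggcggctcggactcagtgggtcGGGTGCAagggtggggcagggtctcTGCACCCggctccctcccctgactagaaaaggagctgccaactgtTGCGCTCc

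The MT2A window held 7 cores, of which 5 were on the strand of the gene. At least as many were found in 0.0313% of the 35116 promoter windows of the same length. MT1X held 4 cores, and 0.37% of windows held as many. MT1H held 8 cores, and 0.0171% of windows held as many. None of these matches overlapped another. The MT2A, MT1X and MT1H windows were 73.2%, 70% and 70.4% G or C. The 35116 windows were not matched for this, so the percentages do not allow for base composition. By comparison, 24.8% of all windows held at least 1 core. The MTF1 window itself held 0 cores by these letters. A TATAAA motif began 29 bases before the start of MT2A and 30 bases before that of MT1X, and was not in the MT1H window; 6.8% of all windows held it on the strand of the gene. MT1H, with the most cores of these windows, was also a member with 0 counts in all libraries. These matches are descriptions of letters, not of binding sites.

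Before the members, the labels were checked. The library totals ranged from 14968958 to 17297245 counts. For LINC01186, the targeted RNA, the siNC replicates held 15 and 14 reads and the libraries labelled siLINC01186 held 12 and 14 reads. The log2 fold change between the groups was -0.12 (SE 0.53). A lower level was thus not seen, with a wide error on so few reads, and groups are named below by their labels. The study reports knockdown of this RNA by qPCR in HepG2 cells, and whether these few reads differ from that was not tested. Markers of hepatocyte-derived cells were also near 0, although HepG2 is known for several of them. ALB, which encodes albumin, had 0 counts in both replicate 1 libraries, and 15 and 14 counts in the siNC and siLINC01186 libraries of replicate 2. Alpha-fetoprotein, AFP, had 2 to 16 counts per library. The 8 hepatocyte-derived markers summed to between 0.179 and 7.12 CPM per library, where CPM is the count scaled by the library size after TMM normalization. Of the 7 markers tested, 5 (ALB, APOA1, APOB, TF and SERPINA1) were called higher in replicate 2 than in replicate 1 by the edgeR quasi-likelihood test, where 7.96% of all tested genes were, and the DESeq2 Wald test gave none of these 5 an adjusted p. The call of SERPINA1 was lost without either siNC library, and that of APOB without siNC replicate 2. Here and below, fits of this comparison with a library left out had no group term. Replicate and group were partly mixed in them. Fibroblast markers summed to 31.1 to 56.9 CPM, mostly COL1A1, a collagen gene, and endothelial markers to 0.63 to 1.24 CPM. Leukocyte markers summed to 0.28 to 1.42 CPM, all or most of it CD14, and CD3E was at 0 in all libraries. The libraries therefore went against the label HepG2 at its defining markers, and the cells are called here by their label only. These are bulk libraries, in which fewer cells of a type and less RNA per cell cannot be told apart.

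The family was carried by MT2A, MT1E and MT1X in these libraries. MT2A, the most abundant metallothionein in many human tissues, lies on chromosome 16 from 56642478 to 56643409 (hg19, plus strand). It had 756 and 813 TPM in siNC replicates 1 and 2, and 638 and 592 TPM in the libraries labelled siLINC01186. TPM is a count divided by gene length and scaled to the library, so levels can be compared between genes. MT1E, at 56659585 to 56661024, had 123 and 129 TPM in the siNC libraries and 122 and 121 TPM in the siLINC01186 libraries. MT1X, at 56716382 to 56718108, had 48.4 and 73.4 TPM in the siNC libraries and 49.8 and 69.7 TPM in the siLINC01186 libraries. MTF1, on chromosome 1 from 38275239 to 38325292 on the minus strand, ranged from 6.83 to 8.43 TPM. The order MT2A, MT1E, MT1X, MTF1 and MT1JP held in each of the 4 libraries, and no neighbours in this order overlapped.

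The other 5 protein-coding members were at or near 0. MT1F, MT1H and MT1A had 0 counts in all 4 libraries. With 3 counts taken as the limit that a count of 0 allows, the level of these genes was at most 0.169 to 0.21 CPM, depending on the library, by counting error only. MT1G had 1 count, in siLINC01186 replicate 2, and MT1M had 1 count, in siLINC01186 replicate 1. No fold change is given for these 5 genes, because no library held more than 1 count. The expressed and silent genes were interleaved on chromosome 16, with MT1M, MT1A, MT1F, MT1G and MT1H all lying between MT1E and MT1X.

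**Figure D1:**
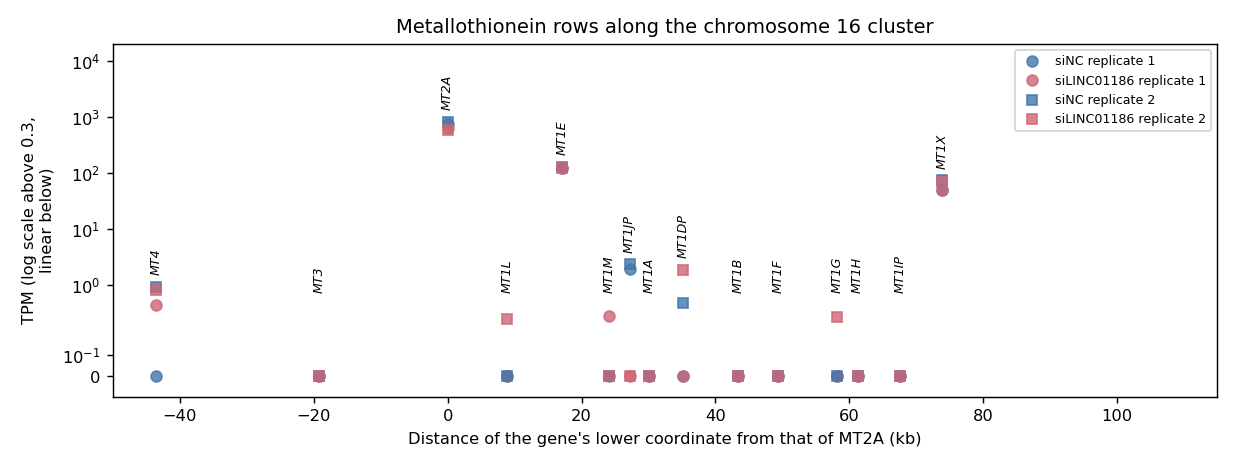
TPM of every metallothionein row on chromosome 16 (y axis, log scale above 0.3 and linear below) against the distance of the gene's lower coordinate from that of MT2A in kb (x axis). Each point is 1 library, blue for siNC and red for siLINC01186, circles for replicate 1 and squares for replicate 2. MT2A, MT1E and MT1X stood at 48.4 TPM or more in every library, and every other gene of the cluster stood at 2.33 TPM or less.

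Among the further metallothionein genes and pseudogenes, 8 of 13 had a row and 5 of these (MT1B, MT1IP, MT1HL1, MT2P1 and MT3) had 0 counts throughout. MT1L, a pseudogene, had 1 count, in siLINC01186 replicate 2. MT4, known from squamous epithelium, had 0 to 2 counts per library. MT1DP, a pseudogene, had 0 counts in both replicate 1 libraries, and 2 and 9 counts in siNC and siLINC01186 replicate 2. It was thus seen in replicate 2 only, at 0.124 and 0.506 CPM, and it was not called in replicate 2 against replicate 1 (edgeR quasi-likelihood test, adjusted p = 0.117), although it was without siNC replicate 2 (adjusted p = 0.0259). MT4, the other of these genes with enough counts for testing, was not called either (edgeR quasi-likelihood test, adjusted p = 0.72).

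The metallothionein genes are similar in sequence, and a read can in principle be given to the wrong one. In the GENCODE release 29 transcripts, the longest stretch shared by any of 66 pairs of 12 family genes was 96 bases, between MT1X and MT1G. No pair shared a stretch as long as a 150-base read. MT1JP shared at most 79 bases, with MT1E, and MT2A at most 70 bases, with MT1G. How the counting treated reads with more than 1 match, and whether it used strand, is not given in the sources used here. Values of single metallothionein genes, above all those with few counts, are therefore uncertain. The sum over the 8 protein-coding members is not changed by a read moved from one of them to another, but it would be by reads left out of the counts or given to a pseudogene, which was not tested.

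Summed over the 8 protein-coding members, the family did not separate the groups. The sum was 184 and 198 CPM in siNC replicates 1 and 2, and 192 and 163 CPM in the libraries labelled siLINC01186. The groups overlapped, and siLINC01186 replicate 2 was the lowest of the 4 libraries. The means were 191 ± 10.4 CPM (SD, n = 2) in siNC and 178 ± 20.2 CPM (SD, n = 2) in siLINC01186. The log2 difference was -0.10, and it was 0.06 within replicate 1 and -0.28 within replicate 2. Replicate 2 against replicate 1 gave 0.11 within siNC, -0.23 within siLINC01186 and -0.06 on average. Without MT2A the siRNA difference was 0.13, and without siLINC01186 replicate 2 it was 0.01.

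Each expressed member was then compared between the groups, as a description without a test, since the members were chosen on this contrast. MT2A had 146 and 155 CPM in siNC replicates 1 and 2, and 147 and 120 CPM in the libraries labelled siLINC01186. Only siLINC01186 replicate 2 stood apart, below the other 3 libraries. This gave a log2 fold change of -0.17 (SE 0.19). MT1E had 28.6 and 29.7 CPM in the siNC libraries, and 33.8 and 29.7 CPM in the siLINC01186 libraries. The replicate 2 libraries were level and the siLINC01186 library was higher in replicate 1, with a log2 fold change of 0.12 (SE 0.19). MT1X had 9.01 and 13.5 CPM in the siNC libraries, and 11.1 and 13.6 CPM in the siLINC01186 libraries. Its siRNA groups overlapped, and the log2 fold change of 0.13 (SE 0.28) turned to -0.13 without siNC replicate 1 and rose to 0.46 without siNC replicate 2.

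MTF1, the regulator, had 29.1 and 24.8 CPM in siNC replicates 1 and 2, and 37.0 and 29.4 CPM in the libraries labelled siLINC01186. The siLINC01186 library was higher in both replicates, by 0.34 and 0.24 on the log2 CPM scale. The groups did not overlap, but siNC replicate 1 and siLINC01186 replicate 2 were 29.1 and 29.4 CPM. Its log2 fold change of 0.30 (SE 0.21) ranged from 0.13 to 0.45 when each library was left out. For scale, the median size of the log2 fold change was 0.11 over the 10180 genes with a mean of at least 10 CPM.

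**Figure D2:**
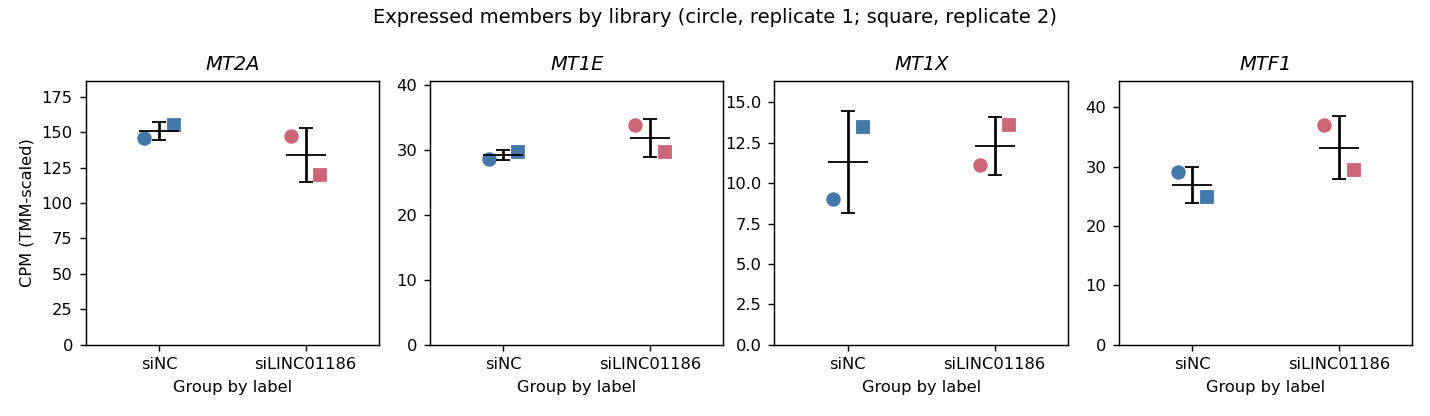
CPM scaled by TMM (y axis) of MT2A, MT1E, MT1X and MTF1 in each library, by group (x axis). Circles are replicate 1, squares replicate 2, and the bars give the mean and SD of 2 libraries. The groups overlap for MT2A, MT1E and MT1X and are 29.1 and 29.4 CPM at their nearest for MTF1, and MT1X is higher in both replicate 2 libraries, at 13.5 and 13.6 CPM against 9.01 and 11.1 CPM.

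MT1JP, on chromosome 16 from 56669651 to 56670998 (plus strand), was seen with 6 reads in siNC replicate 1 and 7 reads in siNC replicate 2. Both libraries labelled siLINC01186 were at 0. In CPM this was 0.358 and 0.434 in the siNC libraries, against a limit of 0.21 and 0.169 that 0 counts allow in the siLINC01186 libraries. The siNC mean was 1.89 times the highest of these limits, which allows for counting error in the zeros but not in the siNC reads. This is the value for which the members were chosen, so it is a description and carries no test. MT1JP was 1 of 109 tested genes with 0 counts in both siLINC01186 libraries, and 3 of these, itself included, had 13 or more siNC counts. It was also a gene of few reads, since 16.8% of the tested genes had a summed count no higher than its own.

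The study states a log2 fold change of 1 and a p of 0.05 as limits, without naming an adjustment. With the p taken as unadjusted and the fold change in either direction, MT1JP alone passed of the 5 tested members. In all, 0.756% of the 23942 tested genes passed in either direction and 0.292% on the lower side. Nothing is read from the members' count here, because the contrast chose them. No gene in the table had an adjusted p under 0.05 by the edgeR quasi-likelihood test, and 289 genes had an unadjusted p under 0.05. The DESeq2 Wald test gave 1 gene with an adjusted p under 0.05. Neither fit had a term for the replicate, so differences between the replicates count as spread within the groups.

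**Figure D3:**
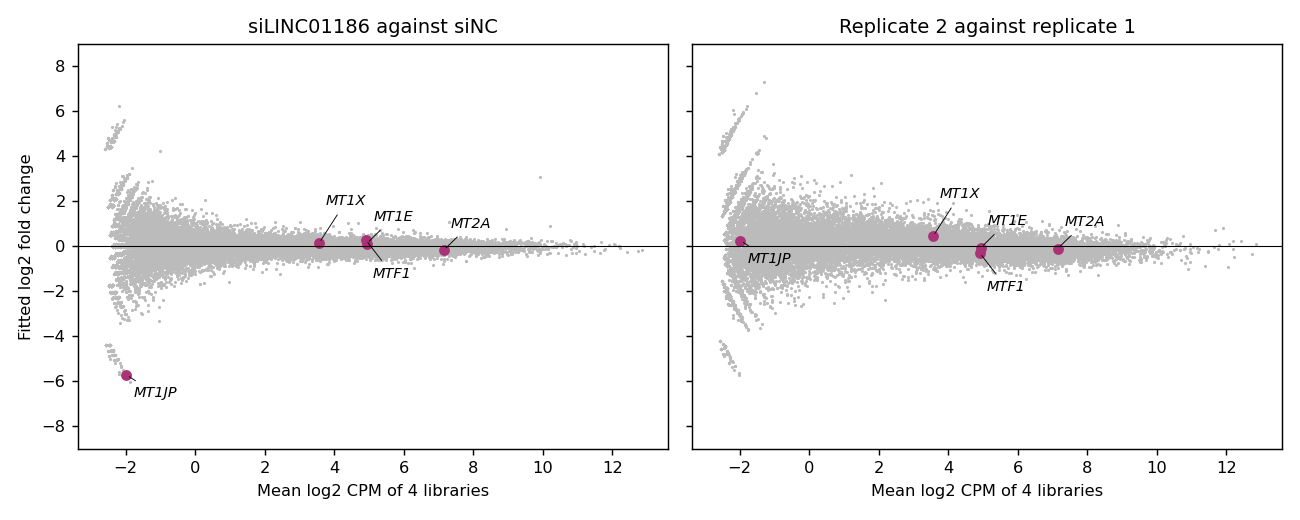
Fitted log2 fold change (y axis) against the mean log2 CPM of the 4 libraries (x axis) of every tested gene in grey, with the 5 tested members in purple, for siLINC01186 against siNC (left) and replicate 2 against replicate 1 (right). MT2A, MT1E, MT1X and MTF1 lie within the grey band in both panels, and MT1JP, at 0 counts in both siLINC01186 libraries, lies at the lower edge on the left. The fitted value of such a gene depends on the fit and is not a fold.

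MT1JP, for which the members were chosen, was not picked on the comparison of replicates, which was tested with the group as a term. In the siLINC01186 libraries the oligo also differed between the replicates, and the group term does not take this out. Replicate and oligo cannot be told apart there, in this and all later values of replicate 2 against replicate 1. No tested member was called at an adjusted p under 0.05 (edgeR quasi-likelihood test), while 17.5% of all tested genes were. Among genes with a mean of at least 10 CPM the share was 29.5%, and 4 members (MT2A, MT1E, MT1X and MTF1) had such a mean. By the DESeq2 Wald test 0 of the 4 members with an adjusted p were called, and 2 members had an unadjusted p under 0.05 by edgeR.

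MT1X came nearest to a call. It was higher in replicate 2 by a log2 fold change of 0.44 (SE 0.17, 95% interval 0.10 to 0.78, edgeR quasi-likelihood test, adjusted p = 0.0614). The difference was 0.58 between the siNC libraries and 0.30 between the siLINC01186 libraries, and replicate 2 was the higher in both groups. With libraries scaled by their column totals, which raises every gene in this comparison by 0.11 on the log2 scale, MT1X had a log2 fold change of 0.55 and passed (edgeR quasi-likelihood test, adjusted p = 0.0175). Over the alternatives its adjusted p by edgeR or DESeq2 ranged from 0.0175 to 0.59. MTF1 was the other member with an unadjusted p under 0.05, and was at a log2 fold change of -0.28 (SE 0.14, edgeR quasi-likelihood test, adjusted p = 0.175).

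MT2A and MT1E gave log2 fold changes of -0.10 (95% interval -0.32 to 0.11) and -0.07 (95% interval -0.34 to 0.21), with adjusted p of 0.639 and 0.847 by the edgeR quasi-likelihood test. Both signs turned with column totals, to 0.01 and 0.05. MT1JP was not called (edgeR quasi-likelihood test, adjusted p = 0.949). Whether the siRNA difference of a member differed between the replicates was not tested, since the 4 libraries leave no residual degree of freedom. The log2 difference between the groups within replicate 2, less that within replicate 1, was -0.38 for MT2A, -0.24 for MT1E, -0.28 for MT1X and -0.10 for MTF1. The 5 hepatocyte-derived markers named above and COL1A1 were called higher in replicate 2 in the same comparison, and their part in the values of MT1X was not tested.

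The make-up of the family does not depend on how libraries are scaled to each other. MT2A took 79.5% of the protein-coding metallothionein counts in siNC replicate 1 (95% interval 78.0 to 80.9, exact Clopper-Pearson, counting error only) and 78.2% in siNC replicate 2 (76.7 to 79.6). In the libraries labelled siLINC01186 it took 76.6% (75.0 to 78.2) and 73.4% (71.8 to 75.0). The MT2A share was lower in the siLINC01186 library of both replicates, and the intervals were apart in replicate 2 and overlapped in replicate 1. MT2A counts per MT1E count were 5.1 and 5.21 for siNC replicates 1 and 2, against 4.35 and 4.04 for the siLINC01186 libraries. This difference belongs to the contrast that chose the members and was not tested.

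The MT1X share followed the replicate more than the group. It was 4.91% (4.17 to 5.73) in siNC replicate 1 and 5.76% (4.92 to 6.7) in siLINC01186 replicate 1. It was 6.81% (5.96 to 7.74) in siNC replicate 2 and 8.34% (7.36 to 9.4) in siLINC01186 replicate 2. Both replicate 2 libraries lay above both replicate 1 libraries. MT1X counts per MT1E count were 0.315 and 0.327 in replicate 1 and 0.454 and 0.458 in replicate 2, and the libraries of the groups were close within each replicate. The MT1E share was 15.6% and 15.0% for siNC replicates 1 and 2, against 17.6% and 18.2% for the siLINC01186 libraries.

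**Figure D4:**
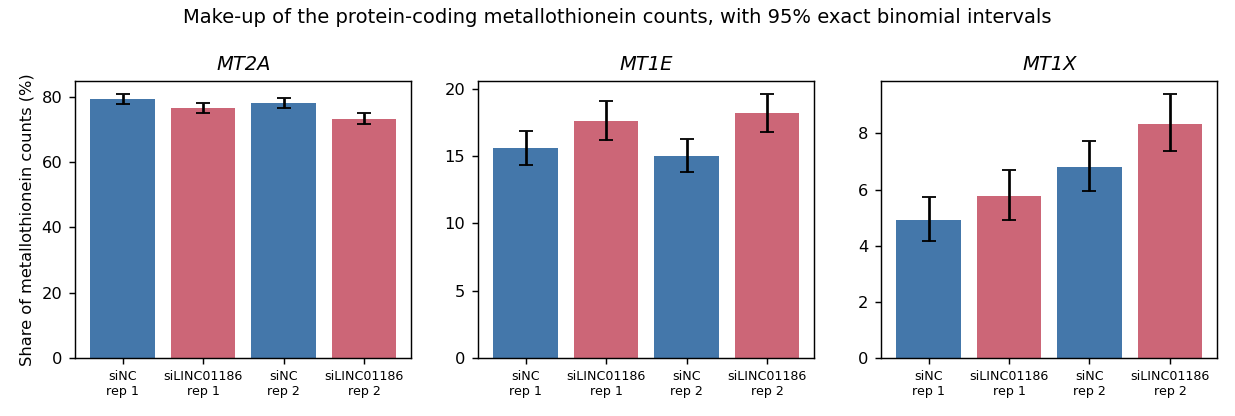
Share of the protein-coding metallothionein counts (y axis, percent) taken by MT2A, MT1E and MT1X in each library (x axis), blue for siNC and red for siLINC01186. Error bars are exact 95% binomial intervals and cover counting error only. The MT2A share runs from 73.4% to 79.5%, and the MT1X share from 4.91% in siNC replicate 1 to 8.34% in siLINC01186 replicate 2.

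Differences between libraries were read from CPM, because 1 short gene took an unequal share of the deposited TPM values. MIR6087, listed with a length of 49 bases and named after its values were seen, took 1.16% and 1.91% of all TPM in the siNC libraries. It took 13.8% and 8.69% in the libraries labelled siLINC01186. In counts it was at most 0.356% of a library. Relative to CPM, the TPM of every gene in siLINC01186 against siNC was shifted by -0.25 on the log2 scale in replicate 1 and by -0.09 in replicate 2. The summed metallothionein difference between the groups was -0.29 from TPM and -0.10 from CPM. MT1E, higher in CPM in the siLINC01186 library of replicate 1, was level in TPM at 123 and 122. Order and shares within 1 library are unaffected.

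The pathway around MTF1 was followed in lists of zinc transporters and other genes known to respond to it. In no list did a gene pass the limits of the study in siLINC01186 against siNC with the edgeR quasi-likelihood test. In replicate 2 against replicate 1, where 7.96% of all tested genes were called higher and 9.55% lower, the calls among zinc transporters were as follows. Of 8 tested zinc exporters, which move zinc out of the cytosol, 1 was lower and 0 were higher. This was SLC30A1, the exporter of the plasma membrane and a known MTF1 target. It had 55.6 and 74.7 CPM in siNC and siLINC01186 replicate 1, and 47.2 and 42.3 CPM in replicate 2. Both replicate 2 libraries were below both replicate 1 libraries, with a log2 fold change of -0.53 (SE 0.13, edgeR quasi-likelihood test, adjusted p = 0.000613).

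Of 13 tested zinc importers, which bring zinc into the cytosol, 4 were lower and 0 were higher. SLC39A10, which MTF1 is known to repress, had 61.1 and 52.2 CPM in siNC and siLINC01186 replicate 1, and 43.8 and 25.9 CPM in replicate 2. Its log2 fold change was -0.74 (SE 0.13, edgeR quasi-likelihood test, adjusted p = 1.37e-06). SLC39A4, SLC39A1 and SLC39A6, other importers of the same family, had log2 fold changes of -0.50, -0.36 and -0.34. The list medians were -0.10 for exporters and -0.16 for importers, beside 0.02 over all tested genes. All 5 called zinc genes kept their sign in 10 of 10 alternatives. SLC30A1 kept its call in 8, and lost it without siLINC01186 replicate 1 (edgeR, adjusted p = 0.423) and by the DESeq2 Wald test (adjusted p = 0.103). SLC39A10 kept its call in 8, and lost it without siNC replicate 1 (edgeR, adjusted p = 0.0563) and without siLINC01186 replicate 2 (edgeR, adjusted p = 0.0846). SLC39A4 kept its call in 7 alternatives and lost it without either replicate 1 library and by the DESeq2 Wald test, while SLC39A1 was called in 3 and SLC39A6 in 1, neither with any library left out. With column totals 1 exporter, SLC30A9, was called higher, and SLC39A1 and SLC39A6 were not called. Without siNC replicate 2, 1 importer, SLC39A11, was called higher; both were named after their values were seen. Of the 16 zinc transporters with a mean of at least 10 CPM, 5 were called, or 31.2%, which is near the 29.5% of all genes at that level, so the count is not a result about zinc transporters.

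Of 4 tested genes known to respond through MTF1, SLC30A1 and SLC39A10 were the 2 called, and both were lower. These are the same genes as in the zinc lists, so their count adds nothing to those. The activated target SLC30A1 and the repressed target SLC39A10 were both lower in replicate 2. MTF1 itself was at a log2 fold change of -0.28 in this comparison and was not called. Its part in the values of these targets was not tested. Copper handling genes went both ways, with 2 of 12 higher and 1 lower. Over all tested genes 7.96% were called higher and 9.55% lower. Among genes with a mean of at least 10 CPM 29.5% were called, and the copper count is not read as a result about the list. SCO2, a mitochondrial copper chaperone, had a log2 fold change of -0.56, and the copper-exporting ATPases ATP7B and ATP7A had 0.85 and 0.43. None of these copper calls was kept without siNC replicate 1, without siLINC01186 replicate 1 or without siNC replicate 2, and by the DESeq2 Wald test 0 genes of the list were called.

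Glucocorticoid-responsive genes were included because the same hormones act on metallothionein genes. Of 9 tested, 2 were higher and 1 was lower in replicate 2. Over all tested genes 7.96% were called higher and 9.55% lower, and 29.5% either way at a mean of at least 10 CPM. This count is not read as a result about the list. TSC22D3, a glucocorticoid-induced leucine zipper protein, had 23.1 and 31.1 CPM in siNC and siLINC01186 replicate 1, and 49.4 and 50.5 CPM in replicate 2. Its log2 fold change was 0.90 (SE 0.14, edgeR quasi-likelihood test, adjusted p = 6.4e-09), and it was called in 10 of 10 alternatives. KLF9, a transcription factor, was higher by 0.76 and lost its call without siLINC01186 replicate 1 (edgeR, adjusted p = 0.0763) and without siNC replicate 2 (edgeR, adjusted p = 0.0742). DUSP1, a phosphatase, gave -0.35 and kept its call in 3 of 10 alternatives, of which only that without siNC replicate 2 left out a library. The list median was 0.04.

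The genes nearest to the summed family over the 4 libraries were sought among 10177 genes outside it with a mean of at least 10 CPM. Likeness was the distance between log2 CPM values centred on their mean. The 5 nearest were RNF185, ZBTB4, ENSG00000222041.6, FAM98C and ANKRD28, at distances of 0.0295 to 0.0388, where the median gene was at 0.365. RNF185, which encodes a ubiquitin ligase, had 19.0 and 20.1 CPM in siNC replicates 1 and 2, and 19.5 and 16.4 CPM in the libraries labelled siLINC01186. Like the family, it was lowest in siLINC01186 replicate 2. With 4 libraries and a small range, many genes lie near any given pattern, and this is a description only.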

How the data were processed

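Poly(A) RNA from 4 libraries labelled HepG2 (2 siNC, 2 siLINC01186) was read as 150-base paired ends. For each gene the authors deposited an unnormalized read count and a TPM value. The TPM values equal the count divided by the listed length and scaled to the same total in each library, within 2.91e-05. The submitters' processing notes name hg19, HISAT2, HISAT, TopHat2 and Bowtie2. The counting program, annotation and strand setting are not given in the sources used here.

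Groups came from the sample titles. Genes with at least 5 counts over the 4 libraries (23942) were scaled by TMM and tested in R 4.3.3 with the quasi-likelihood test of edgeR 4.0.16, with Benjamini-Hochberg adjustment over all of them. The siRNA contrast had no covariate, and replicate 2 against replicate 1 had the group as a covariate, which leaves 1 residual degree of freedom. Log2 CPM used a prior count of 2, and standard errors came from the F statistic. The intervals of shares and the floor of 3 counts cover counting error only. Those of fold changes were built from these standard errors by a normal approximation, and so include the spread between libraries as fitted by edgeR. The procedure was run on counts simulated with the spread that edgeR fitted, with changes placed in well-counted genes only. This does not bear on the oligo difference or on members with few counts. The alternatives were DESeq2 1.42.0 (size factors and Wald test), column totals, other count filters, the replicate number as a block, no group term, and each library left out. With a library left out, replicate 2 against replicate 1 was fitted without the group as a covariate. Python 3.11.15 was used for sequences and shares.

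The members, gene lists and tests were chosen with earlier results of these data known. The text names all members, all further metallothionein genes, LINC01186, up to 4 genes per other list (those called in the replicate comparison with the smallest p, otherwise the most abundant), and the 5 genes nearest to the family; other names were added after their values were seen.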

Additional observations from a re-analysis of the deposited data

How the results depend on the processing

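The number of genes past the limits of the study in siLINC01186 against siNC was 181. It was 46 with edgeR's expression filter, 27 with the DESeq2 Wald test, and 248 to 375 when each library was left out. The number called in replicate 2 against replicate 1 was 4191. It was 2754 with the expression filter, 929 with the DESeq2 Wald test, 2158 without the group term, and 1294 to 3332 with each library left out, where a replicate with 1 library is assumed to vary like the other. In that comparison the sign of MT2A turned with column totals to 0.01 and ranged from -0.26 to 0.08 with each library left out. MT1E gave 0.05 and a range of -0.18 to 0.06. MT1JP gave 4.81 without siNC replicate 1 and -4.67 without siNC replicate 2. Neither fit had a group term, so its siNC reads, 7 in replicate 2 or 6 in replicate 1, lay in 1 replicate only. None of these MT2A, MT1E and MT1JP values was called. MT1X passed with column totals only, and kept its sign in all 10 alternatives. The summed metallothionein difference between the groups, -0.10, was -0.29 from TPM and 0.13 without MT2A. That between the replicates, -0.06, lay between -0.20 and 0.08 over the alternatives, so neither sign was fixed. Same-numbered libraries deviated together (correlation 0.563), but with 2 pairs and no label of a shared batch the numbers were not taken as pairs. With the replicate number as a block 220 genes passed. The siRNA log2 fold changes of MT2A and MTF1 were then -0.18 (SE 0.11) and 0.30 (SE 0.14). Without the block their SE were larger, at 0.19 and 0.21. Depth limits MT1JP, MT1DP and the silent members, whose few counts allow no precise level.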
